A study of Mus musculus with 36 samples.

Results

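Counts of 9 genes known from fat cells, Ucp1, Cidea, Cox8b, Adipoq, Plin1, Dio2, Adrb3, Lipe and Fabp4, were followed through the 12 kidney libraries of the study, with heart and liver beside them. The 9 genes, of 78239 in the count files, were selected on their levels in these same kidney libraries, so the kidney values below are a description and carry no test. Each was matched by its symbol to 1 Ensembl gene. RNA was sequenced from heart, kidney and liver of wild-type (WT) male C57BL/6NCrl mice, an inbred strain, that had been bought from a breeder, fed standard chow and killed when 8, 10 or 12 weeks old, all without any treatment other than the anaesthetic ketamine and xylazine. There were 4 libraries for each tissue and age, 36 in all, which the study calls biological replicates, and the organs were flash-frozen after collection, with no account in the methods of how the tissue around them was trimmed. The labels do not say which heart, kidney and liver came from the same mouse.

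Brown fat burns fatty acids to make heat, and white fat stores them as triglyceride. In brown adipocytes, noradrenaline binds the beta-3 adrenergic receptor (Adrb3), hormone-sensitive lipase (Lipe) and other lipases release fatty acids from the droplet coated by perilipin 1 (Plin1), and uncoupling protein 1 (Ucp1) lets protons leak across the inner mitochondrial membrane. Type 2 deiodinase (Dio2) makes active thyroid hormone inside the cell, Cidea shapes lipid droplets, and Cox8b is a subunit of cytochrome c oxidase. Adiponectin (Adipoq) is a hormone secreted by fat cells of both kinds, and Fabp4 carries fatty acids in adipocytes, macrophages and the endothelium of small vessels. In the mouse the kidney lies in perirenal fat, which can hold brown adipocytes. In RNA from a whole organ, fewer cells of a type and less RNA per cell cannot be told apart.

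The kidney libraries held 21323021 to 32670858 counted read pairs, and CPM here means counts per 1000000 counted pairs of a library. A count of 0 allows a level of up to 0.0918 to 0.141 CPM in kidney, the level of 3 counts, and such limits cover counting error only. The libraries bore out their tissue labels. The summed level of 9 kidney genes, among them Slc34a1, Umod and Aqp2, lay between 29000.0 and 36500.0 CPM in the kidney libraries and at no more than 6.5 CPM in heart or liver. Heart genes (Myh6, Tnnt2, Actc1, Myl2 and Nppa) summed to 0.422 to 1.83 CPM in kidney. A list of 5 liver genes summed to 1700.0 to 2730.0 CPM in kidney, most of it Cyp2e1, and albumin (Alb) reached at most 8.4 CPM there.

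Ucp1, known from brown adipocytes, was present in kidney in some libraries and close to absent in others. Its counts at 8 weeks were 1, 543, 2 and 4 in replicates 1 to 4, or 0.0469, 21.9, 0.0622 and 0.129 CPM. At 10 weeks they were 106, 16, 93 and 126, or 4.72, 0.601, 3.09 and 4.66 CPM. At 12 weeks they were 285, 0, 2 and 1, or 8.72, 0.0, 0.082 and 0.0341 CPM. Replicate 2 of the 8-week kidneys alone held 46.1% of all 1179 Ucp1 counts in kidney and replicate 1 of the 12-week kidneys a further 24.2%. All 4 of the 10-week libraries were above the other 3 libraries of each of the other ages, and the ages overlapped. The gene lies on the plus strand at chr8:84016647-84025085 of GRCm39 with no other annotated gene over it.

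**Figure D1:**
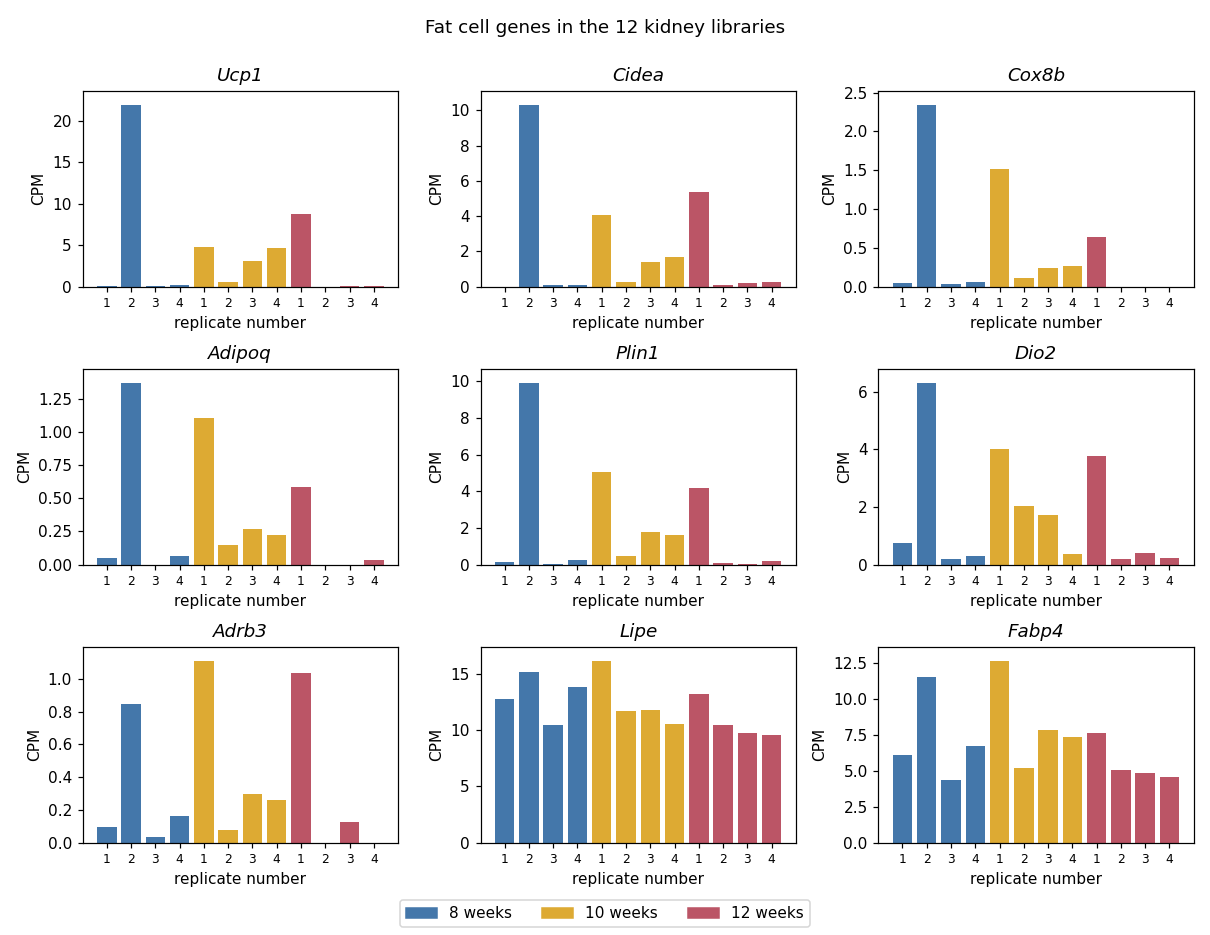
Level of each of the 9 genes in CPM (vertical axes, each from 0) in the 12 kidney libraries, as 1 bar per library ordered by age and replicate number. Ucp1, Cidea, Cox8b, Adipoq, Plin1, Dio2 and Adrb3 stand high in replicate 2 at 8 weeks, replicate 1 at 10 weeks and replicate 1 at 12 weeks, while every kidney library holds at least 9.52 CPM of Lipe and 4.33 CPM of Fabp4.

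The stretch before the start of transcription is shown for Ucp1, Cox8b, Adipoq and Plin1, since these 4 rose and fell together between kidney libraries but differed in heart, where only Cox8b was abundant. The RefSeq promoter table, on build GRCm38.p6 and not on the build of the counts, held entries for 6 of the 9 genes, and none for Cidea, Adrb3 and Fabp4. Each sequence is the 250 bases before the RefSeq start, 5′ to 3′ on the strand of the gene, at chr8:83290098-83290347 (plus) for Ucp1, chr7:140900447-140900696 (minus) for Cox8b, chr16:23146286-23146535 (plus) for Adipoq and chr7:79732777-79733026 (minus) for Plin1. Capitals mark matches on either strand to 4 short motifs, which are AGGNCA (a half-site of nuclear receptors such as PPARs and thyroid hormone receptors), TGACG (part of the cyclic AMP response element), CCAAT (the CCAAT box) and TATAAA (the TATA box).
Ucp1: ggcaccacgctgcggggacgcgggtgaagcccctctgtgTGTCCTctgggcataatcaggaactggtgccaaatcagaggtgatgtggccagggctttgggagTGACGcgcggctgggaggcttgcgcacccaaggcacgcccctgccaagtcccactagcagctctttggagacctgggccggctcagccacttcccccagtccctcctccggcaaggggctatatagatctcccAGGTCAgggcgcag
Cox8b: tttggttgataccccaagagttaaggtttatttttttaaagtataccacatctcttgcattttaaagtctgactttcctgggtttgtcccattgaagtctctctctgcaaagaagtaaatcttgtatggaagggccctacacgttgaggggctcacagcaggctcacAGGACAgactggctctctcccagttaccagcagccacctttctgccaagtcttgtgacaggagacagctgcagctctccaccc
Adipoq: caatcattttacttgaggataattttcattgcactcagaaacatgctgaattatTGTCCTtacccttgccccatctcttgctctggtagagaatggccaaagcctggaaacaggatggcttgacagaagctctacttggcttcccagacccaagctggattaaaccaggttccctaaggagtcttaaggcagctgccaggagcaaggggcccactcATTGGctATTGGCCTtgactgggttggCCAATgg
Plin1: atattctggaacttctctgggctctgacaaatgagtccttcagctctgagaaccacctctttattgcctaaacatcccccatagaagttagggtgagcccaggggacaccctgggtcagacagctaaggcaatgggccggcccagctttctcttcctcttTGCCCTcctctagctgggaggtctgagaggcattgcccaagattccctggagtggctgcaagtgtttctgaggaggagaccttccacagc
AGGNCA was found in all 4 of these sequences, and also in 51.3% of the 32851 promoter windows of this length in the table. TGACG was in that of Ucp1 only among the 4, against 17.8% of all windows, and CCAAT in that of Adipoq only, against 33.8%. One CCAAT match of Adipoq overlaps an AGGNCA match on the minus strand. TATAAA was in none of the 4 and in 12.4% of all windows. These are letters in a window, and no binding was measured.

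Cidea followed Ucp1 in kidney. Its levels were 0.0, 10.3, 0.0934 and 0.0965 CPM at 8 weeks, 4.05, 0.263, 1.4 and 1.7 CPM at 10 weeks, and 5.36, 0.0997, 0.205 and 0.273 CPM at 12 weeks. The same 3 libraries were highest in the same order as for Ucp1. Cidea lies on chromosome 18 of GRCm39 between 67476317 and 67501224, on the plus strand, and a noncoding gene on the other strand overlaps it.

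Cox8b (chr7:140477069-140480359, minus strand) was rarer, with 134 counts in kidney in all. It stood at 0.0469, 2.34, 0.0311 and 0.0643 CPM at 8 weeks, 1.51, 0.113, 0.233 and 0.259 CPM at 10 weeks, and 0.643 CPM in replicate 1 at 12 weeks with 0 counts in the other 3 libraries of that age. Again replicate 2 at 8 weeks was highest, and replicate 1 was highest at both later ages.

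Dio2 (chr12:90691322-90705819, minus strand) was found in all 12 kidney libraries. Its levels were 0.75, 6.3, 0.187 and 0.29 CPM at 8 weeks, 4.01, 2.03, 1.73 and 0.37 CPM at 10 weeks, and 3.76, 0.199, 0.41 and 0.239 CPM at 12 weeks. The 3 libraries high in Ucp1 were also highest here, but replicate 4 at 10 weeks, with 4.66 CPM of Ucp1, had one of the lower Dio2 levels, and replicate 2 at 10 weeks, with 0.601 CPM of Ucp1, the fourth highest.

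The receptor gene Adrb3 (chr8:27715443-27740925, minus strand) had 109 counts in kidney. Its levels were 0.0938, 0.848, 0.0311 and 0.161 CPM at 8 weeks, 1.11, 0.0751, 0.299 and 0.259 CPM at 10 weeks, and 1.04, 0.0, 0.123 and 0.0 CPM at 12 weeks. The highest library was replicate 1 at 10 weeks, followed by replicate 1 at 12 weeks and replicate 2 at 8 weeks.

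Of the lipid droplet genes, Plin1 (chr7:79369966-79382718, minus strand, with no other annotated gene over it) behaved like Ucp1 and Lipe did not. Plin1 stood at 0.141, 9.9, 0.0311 and 0.257 CPM at 8 weeks, 5.03, 0.488, 1.76 and 1.59 CPM at 10 weeks, and 4.16, 0.0997, 0.041 and 0.205 CPM at 12 weeks. Lipe (chr7:25078880-25098135, minus strand) stood at 12.7, 15.1, 10.4 and 13.8 CPM at 8 weeks, 16.1, 11.7, 11.8 and 10.5 CPM at 10 weeks, and 13.2, 10.4, 9.72 and 9.52 CPM at 12 weeks. Plin1 thus ran from 1 count to 245 counts in a library, while the highest Lipe level was only 1.69 times the lowest, with replicate 2 at 8 weeks, replicate 1 at 10 weeks and replicate 1 at 12 weeks again highest of their ages.

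Adipoq (chr16:22964106-22976810, plus strand), the fat hormone, had 100 counts in kidney, at 0.0469, 1.37, 0.0 and 0.0643 CPM at 8 weeks, 1.11, 0.15, 0.266 and 0.222 CPM at 10 weeks, and 0.582, 0.0, 0.0 and 0.0341 CPM at 12 weeks. Fabp4 (chr3:10268785-10273737, minus strand) stood at 6.05, 11.5, 4.33 and 6.72 CPM at 8 weeks, 12.6, 5.15, 7.81 and 7.36 CPM at 10 weeks, and 7.59, 5.05, 4.84 and 4.57 CPM at 12 weeks. Fabp4 thus had a level in every library, and the same 3 libraries were highest of their ages.

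Some of these levels are understated. The column used leaves out pairs that overlap genes on both strands, and noncoding genes are annotated on the other strand over Adipoq, Lipe and Fabp4. For Fabp4 it held 13.1% of the pairs found by adding both strand columns (2267 against 17301 in kidney), for Adipoq 34.5%, for Lipe 53.6% and for Adrb3 85.8%. With both strand columns, Fabp4 was at 33.9, 81.8, 31.0 and 41.5 CPM at 8 weeks and at 55.1, 31.2, 34.0 and 30.2 CPM at 12 weeks, so that replicate 2 at 8 weeks and replicate 1 at 12 weeks were again the highest of their ages. The library preparation did not keep the strand, since 49.82% to 50.24% of the strand counts fell on the first strand, so pairs of overlapping genes cannot be told apart.

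Between genes, levels are compared as CPM per kilobase of exon. In replicate 2 at 8 weeks, Ucp1 had the highest level per kilobase of the 9 genes with 11.3, followed by Cidea with 4.6, Lipe with 2.53, Fabp4 with 2.32 and Plin1 with 1.56. Cox8b and Dio2 both had 0.981 CPM per kilobase there, Adipoq 0.603 and Adrb3 0.148. With both strand columns Fabp4 came first in that library with 16.5 CPM per kilobase, before Ucp1 with 9.64, Lipe with 4.19 and Cidea with 3.92. In the column used, the medians over the kidney libraries gave another order, with Lipe at 1.97 and Fabp4 at 1.29 CPM per kilobase and Ucp1 at 0.188. With both strand columns Fabp4 was above Lipe in every kidney library, at no less than 6.09 CPM per kilobase against no more than 4.19.

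The proportions of the genes are given for libraries with at least 10 Ucp1 counts, as a description of single libraries with intervals that cover counting error only. In replicate 2 at 8 weeks there were 0.47 Cidea pairs for each Ucp1 pair, with a 95% Clopper-Pearson interval of 0.403 to 0.546, and in replicate 1 at 12 weeks there were 0.614 with an interval of 0.506 to 0.744. Replicate 1 at 10 weeks had 0.858 with an interval of 0.642 to 1.15. Plin1 gave 0.451 (0.386 to 0.526) in replicate 2 at 8 weeks and 0.477 (0.386 to 0.587) in replicate 1 at 12 weeks, and 1.07 (0.811 to 1.4) in replicate 1 at 10 weeks. The Dio2 ratio ran from 0.0794 (0.0372 to 0.151) in replicate 4 at 10 weeks to 3.38 (1.9 to 6.32) in replicate 2 at 10 weeks, where Ucp1 had 16 counts.

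**Figure D2:**
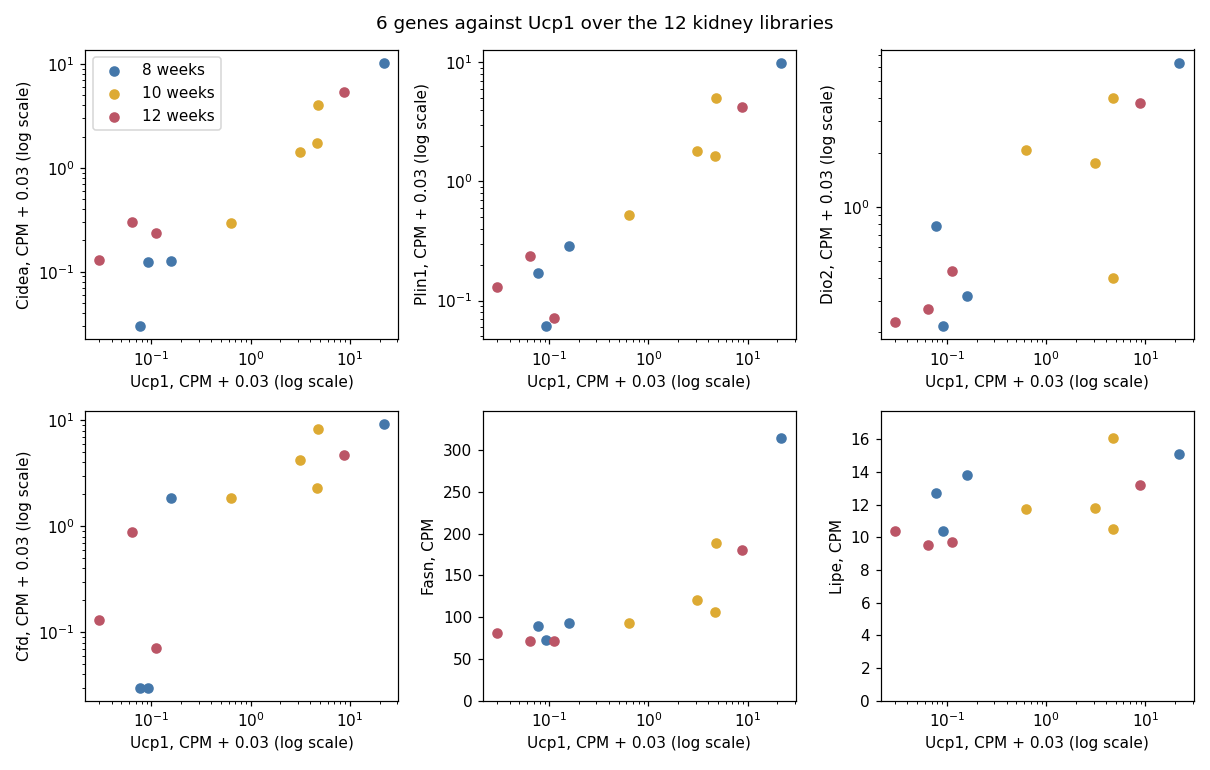
Levels in CPM of Cidea, Plin1, Dio2, Cfd, Fasn and Lipe (vertical axes) against Ucp1 (horizontal axis, CPM + 0.03, log scale), with 1 point for each of the 12 kidney libraries, coloured by age. Cidea and Plin1 lie close to a line with Ucp1, Dio2 is spread, Fasn is between 71.5 and 315.0 CPM, and Lipe stays between 9.52 and 16.1 CPM.

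With all ages together, 7 of the 9 genes were among the most variable of the kidney. The standard deviation of log2 CPM within ages was 2.9 for Ucp1, the highest of the 17649 genes kept, against a median of 0.17 over all of them. Cidea ranked 3 with 2.42, Plin1 4 with 2.29, Cox8b 11 with 1.75, Dio2 12 with 1.74, Adipoq 24 with 1.54 and Adrb3 27 with 1.5. Fabp4 (0.47, rank 1993) and Lipe (0.22, rank 7056) were far less variable. These ranks come from the values by which the genes were chosen.

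At 12 against 8 weeks the log2 ratio of the means was past the standard deviation within ages for 2 of the 9 genes, Cox8b (-1.95, SD 1.76) and Lipe (-0.28, SD 0.22), at 10 against 8 weeks for 0, and at 12 against 10 weeks for 3, Cox8b (-1.72, SD 1.36), Adipoq (-1.51, SD 1.18) and Fabp4 (-0.58, SD 0.44). In all 3 comparisons of ages 0 of the 9 genes were without overlap between the libraries. The shares of all kidney genes without overlap, or past their standard deviation, were not counted, so nothing is read from these counts. By a different measure, edgeR's call at an adjusted p under 0.05, the share of all genes was 0.0567% at 12 against 8 weeks, 0.929% at 10 against 8 weeks and 0.482% at 12 against 10 weeks. Ucp1 averaged 5.54 CPM at 8 weeks, 3.27 CPM at 10 weeks and 2.21 CPM at 12 weeks, and the log2 ratio of the means at 12 against 8 weeks was -1.33 with a standard deviation within ages of 3.27. The standard deviations in this paragraph are of log2 levels within the 2 ages compared. The 2.9 above covers all 3 ages and is of log2 CPM with TMM factors and a prior count of 2, so it is not set beside them. The ratios are of mean CPM, which 1 high library can set, so ratio and standard deviation are not on 1 scale. The sum of the 9 genes averaged 34.0, 31.5 and 22.8 CPM at the 3 ages. The larger part of it was Lipe (13.0, 12.5 and 10.7 CPM) and Fabp4 (7.14, 8.23 and 5.51 CPM), the 2 least variable of the 9. The log2 ratio of the sum at 10 against 8 weeks was -0.11 with all libraries and 0.74 without replicate 2 of the 8-week kidneys. At 12 against 8 weeks it was -0.58, or 0.27 without that library and -1.15 without replicate 1 of the 12-week kidneys. The direction in these 2 comparisons thus rested on single libraries, while at 12 against 10 weeks it was -0.47 and ran from -1.04 to -0.15 with each library left out.

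Depth and mapping of the 3 libraries high in these genes lay at different places among the 12. Counted pairs were 24753509 in replicate 2 at 8 weeks, 22452556 in replicate 1 at 10 weeks and 32670858, the most of the 12, in replicate 1 at 12 weeks. The share of pairs that were counted was 78.09%, 76.4% and 77.53% in them, within 76.39% to 78.22% over the kidney libraries, and the share that matched several places was 8.02%, 8.78% and 7.62%, the last being the lowest of a range up to 9.17%. Kidney genes summed to 30400.0, 36500.0 and 32600.0 CPM in them, of which the second is the highest of the 12. The part of these in the levels was not tested.

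Markers of other tissues next to the kidney were set beside these levels. The adrenal cortex list (7 genes) summed to 4.68 to 6.33 CPM over the kidney libraries, nearly all of it Star, with Cyp11b2 and Cyp21a1 at 0 in every one, and the list for adrenal medulla and sympathetic nerve (5 genes) reached at most 0.134 CPM, with Th and Chga at 0 in the column used. Skeletal muscle genes (7) summed to 0.836 to 1.38 CPM, lymphoid genes (5) to 1.61 to 3.56 CPM and capillary endothelium genes (5) to 686.0 to 1010.0 CPM. Over all 12 libraries, neither replicate 2 at 8 weeks (1.25, 2.5 and 776.0 CPM) nor replicate 1 at 12 weeks (1.25, 3.49 and 930.0 CPM) lay outside the others. Within 12 weeks, however, replicate 1 was highest in muscle genes (the others 1.03, 1.07 and 1.02 CPM) and lymphoid genes (2.63, 2.71 and 2.39 CPM). Replicate 1 at 10 weeks was the highest of the 12 in both, at 1.38 and 3.56 CPM. Mesothelium genes (Msln, Upk3b and Lrrn4), of the lining of the body cavity, summed to 8.12 CPM in replicate 2 at 8 weeks against 4.88, 5.04 and 4.95 CPM in the others of that age, to 8.97 CPM in replicate 1 at 12 weeks against 5.82, 6.31 and 4.61 CPM, and to 8.25 to 14.4 CPM at 10 weeks. Urothelium genes (5) summed to 21.9 CPM in replicate 2 at 8 weeks against 11.6 to 13.8 CPM in the others of that age, to 13.2 CPM in replicate 1 at 12 weeks against 7.79 to 9.83 CPM, and to 19.5 to 23.0 CPM at 10 weeks. At 8 and at 12 weeks the library highest in Ucp1 was thus also the highest of its age in the mesothelium and urothelium lists. At 10 weeks it was not. Replicate 2, lowest in Ucp1 of that age, had 11.4 and 23.0 CPM, against 10.7 and 20.2 CPM in replicate 1, the highest in Ucp1. The part of these lists in the levels of the fat cell genes was not tested, nor was that of fat tissue attached to the organ.

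Lists of brown and white fat cell genes were set beside the 9 genes. The brown adipocyte list of 7 genes (Ucp1, Cidea, Cox8b, Dio2, Elovl3, Cox7a1 and Otop1), which includes 4 of the 9 genes, summed to 0.565 to 44.0 CPM over the kidney libraries, and the white adipocyte list (Lep, Retn, Cfd, Adipoq and Plin1) to 0.082 to 21.7 CPM. Both were highest in replicate 2 at 8 weeks. Each list holds genes chosen on these same levels, so the sums do not test a label of brown or white fat. Outside the 9 genes, Otop1, a proton channel of brown adipocytes, stood at 1.9 CPM in replicate 2 at 8 weeks and 0.582 CPM in replicate 1 at 12 weeks with at most 0.0682 CPM in the others of these ages, and Elovl3, a fatty acid elongase induced in brown fat, at 0.97 and 0.0306 CPM in these 2 libraries. Cox7a1, a muscle and brown fat form of a cytochrome c oxidase subunit, lay between 0.141 and 0.413 CPM, at 0.242 CPM in replicate 2 at 8 weeks, but the column used held only 3.57% of its pairs in kidney. With both strand columns it lay between 4.94 and 7.7 CPM, at 5.68 CPM in replicate 2 at 8 weeks and 5.18 CPM in replicate 1 at 12 weeks, and 7.7 CPM, its highest of the 12, in replicate 4 at 12 weeks. Zic1 and Lhx8, which mark brown fat of the interscapular depot, were at 0 counts in all 12 kidney libraries. Of the white fat genes, Cfd (adipsin) reached 9.13 CPM and Retn (resistin) 1.21 CPM in replicate 2 at 8 weeks, and Lep (leptin) did not pass 0.178 CPM in any kidney library. These genes were named with their values known.

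The genes whose pattern over the 12 kidney libraries was most like that of Ucp1 were found by Pearson's r of log2 CPM among the 17649 genes kept. Among the chosen genes r with Ucp1 was 0.96 for Plin1, 0.95 for Cidea, 0.94 for Adipoq, 0.93 for Cox8b, 0.9 for Adrb3, 0.83 for Dio2 and Fabp4 and 0.58 for Lipe. Of the other genes, the 10 highest were Otop1 and the amino acid transporter Slc36a2 (both 0.95), the lipid droplet gene Cidec (0.91), butyrylcholinesterase Bche and the collagen chaperone Serpinh1 (both 0.9), hexokinase 2 (Hk2), fatty acid synthase (Fasn), Retn and Ism1 (all 0.89), and the glycogen-targeting subunit Ppp1r3b (0.88). The rank correlation of these 10 lay between 0.78 for Ism1 and 0.92 for Hk2. The 12 values are not spread evenly, with 2 or 3 libraries far above the rest, and without replicate 2 at 8 weeks and replicate 1 at 12 weeks r was 0.93 for Otop1, 0.9 for Slc36a2, 0.94 for Serpinh1 and 0.82 for Fasn.

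For Adipoq the 10 most alike were Fasn and Cidec (both 0.95), Ism1, Otop1 and Slc36a2 (all 0.94), Serpinh1 (0.91), and stearoyl-CoA desaturase Scd1, Ppp1r3b, Retn and the laminin chain Lama4 (all 0.9). 8 of these 10 are also among the 10 for Ucp1. Fasn, which the kidney itself expresses, stood at 89.9, 315.0, 72.6 and 92.6 CPM at 8 weeks, 189.0, 93.6, 121.0 and 106.0 CPM at 10 weeks, and 180.0, 81.4, 71.7 and 71.5 CPM at 12 weeks. Scd1 reached 621.0 CPM in replicate 2 at 8 weeks and 371.0 CPM in replicate 1 at 12 weeks, with a median of 178.0 CPM. As the points share their libraries, these correlations describe likeness only.

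The other genes of the pathway were taken from 3 lists and tested between ages in kidney with edgeR's quasi-likelihood test, with p-values adjusted by Benjamini-Hochberg over all 17649 genes kept. A gene was called at an adjusted p under 0.05. Of 22 other brown fat genes 13 were tested, of 30 other adipocyte genes 27 and of 15 genes of adrenergic signalling and lipolysis 14. At 12 against 8 weeks 0 of these 54 genes were called by edgeR, where 0.0567% of all genes were. At an unadjusted p under 0.05 there were 9 of the 54, against 2059 of all 17649 genes. DESeq2 called 1 of the 54 and limma-voom 0. The shares of all genes called by these 2 tools are not given here, so nothing is read from their counts in any comparison. The median log2 fold change was -0.1 in the brown fat list, -0.12 in the adipocyte list and -0.09 in the lipolysis list, against 0.0 over all genes tested. Of the 54, 13 were above 0, against 8961 of 17649. The lists were drawn up with results of these data known, and 29 of the 54 genes were highest in replicate 2 at 8 weeks. Otop1, which met the filter's mean count at 8 weeks only, is among the 54. No shift of the lists with age is read from these values.

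At 10 against 8 weeks 2 of the 54 genes fell and 0 rose by edgeR, where 0.929% of all genes were called (114 higher and 50 lower). At an unadjusted p under 0.05 there were 14 of the 54, against 2917 of all 17649 genes. DESeq2 called 4 and limma-voom 2. Plin5, which coats lipid droplets in oxidative tissues, was at 6.0, 7.27, 6.16 and 11.8 CPM at 8 weeks and at 4.54, 2.78, 3.06 and 2.55 CPM at 10 weeks, without overlap. It fell by 1.31 on the log2 scale, with a standard error of 0.23 and an adjusted p of 0.0198 by edgeR's quasi-likelihood test. Plin5 was at 3.06, 2.73, 2.83 and 3.72 CPM at 12 weeks, a log2 fold change of -1.32 ± 0.23 (SE) from 8 weeks with an adjusted p of 0.0838. Dgat2, the enzyme of the last step of triglyceride synthesis, was at 216.0, 255.0, 222.0 and 226.0 CPM at 8 weeks and at 153.0, 185.0, 163.0 and 185.0 CPM at 10 weeks, again without overlap, and fell by 0.44 on the log2 scale with a standard error of 0.09 and an adjusted p of 0.0409. Without replicate 2 at 8 weeks and replicate 1 at 12 weeks neither was called, with log2 fold changes of -1.34 for Plin5 (adjusted p = 0.0576) and -0.38 for Dgat2 (adjusted p = 0.0967). With single libraries left out, Plin5 lost its call without replicate 3 at 10 weeks (adjusted p = 0.0747). Dgat2 lost it in 7 of 12 such fits, those without replicate 2, 3 or 4 at 8 weeks, 1 or 3 at 10 weeks, or 2 or 3 at 12 weeks, with adjusted p between 0.0542 and 0.132.

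**Figure D3:**
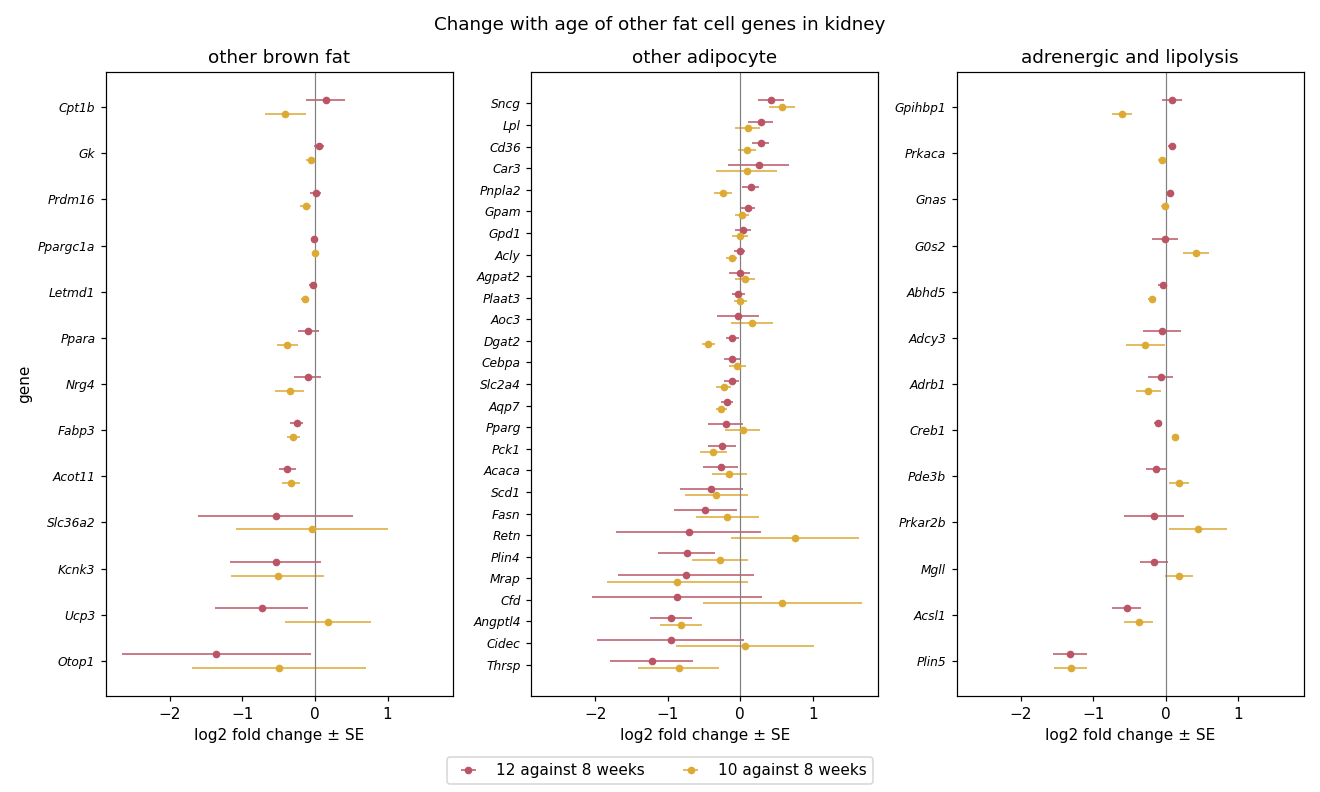
Log2 fold change with its standard error (horizontal axis) of tested genes of the 3 lists (vertical axis) in kidney, at 12 against 8 weeks and at 10 against 8 weeks. Both comparisons share the 8-week libraries. Plin5 lies at -1.32 and -1.31, and Otop1, Cidec, Cfd and Slc36a2 have the wide errors of genes that differ between libraries of an age.

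Some genes that varied between animals gave wide errors at 12 against 8 weeks. Within the brown fat list the largest differences were -1.36 ± 1.3 (SE) for Otop1, -0.73 ± 0.64 for the uncoupling protein homologue Ucp3 and -0.54 ± 1.07 for Slc36a2, with adjusted p from 0.703 to 0.884. Otop1 met the filter's mean of 10 counts at 8 weeks only, so its direction is not a result. It had 48 counts at 8 weeks, 47 of them in replicate 2, against 35 at 10 weeks and 21 at 12 weeks. Within the adipocyte list they were -1.22 ± 0.57 for Thrsp, a lipogenic gene, -0.96 ± 1.01 for Cidec and -0.96 ± 0.29 for Angptl4, an inhibitor of lipoprotein lipase, with adjusted p of 0.427, 0.756 and 0.256. In the lipolysis list the next after Plin5 was -0.54 ± 0.2 for acyl-CoA synthetase Acsl1 (adjusted p = 0.339). Angptl4, Acsl1 and Thrsp had unadjusted p of 0.00495, 0.0185 and 0.0493 by edgeR's quasi-likelihood test, and were not called after adjustment. The coactivators Ppargc1a (107.0 to 119.0 CPM) and Prdm16 (17.2 to 22.7 CPM), both active in brown fat, were near level across the kidney libraries.

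At 12 against 10 weeks 0 of the 54 genes were called by edgeR, where 0.482% of all genes were. At an unadjusted p under 0.05 there were 9 of the 54, against 2894 of all 17649 genes. DESeq2 called 3 and limma-voom 0. The median log2 fold change was 0.05 in the brown fat list, -0.06 in the adipocyte list and -0.09 in the lipolysis list, and at 10 against 8 weeks it was -0.3, -0.04 and -0.03. Of the 54 genes, 29 had their highest kidney level in replicate 2 at 8 weeks (53.7%), which was the highest library for 6.79% of all genes kept. The lists were drawn up with results of these data known.

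The other tissues differed from kidney in which of the genes they held. In heart, Ucp1 had 0 counts in all 12 libraries, which allows up to 0.101 to 0.138 CPM in each, and in liver it had 1 count in 1 library. Adipoq had at most 4 counts and Plin1 at most 6 counts in a heart library, and each 1 count over the 12 liver libraries. Adrb3 had at most 2 counts in a heart library. The highest kidney library was above every heart library for 5 of the 9 genes (Ucp1, Adipoq, Plin1, Dio2 and Adrb3) and above every liver library for 8, all but Adrb3.

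**Figure D4:**
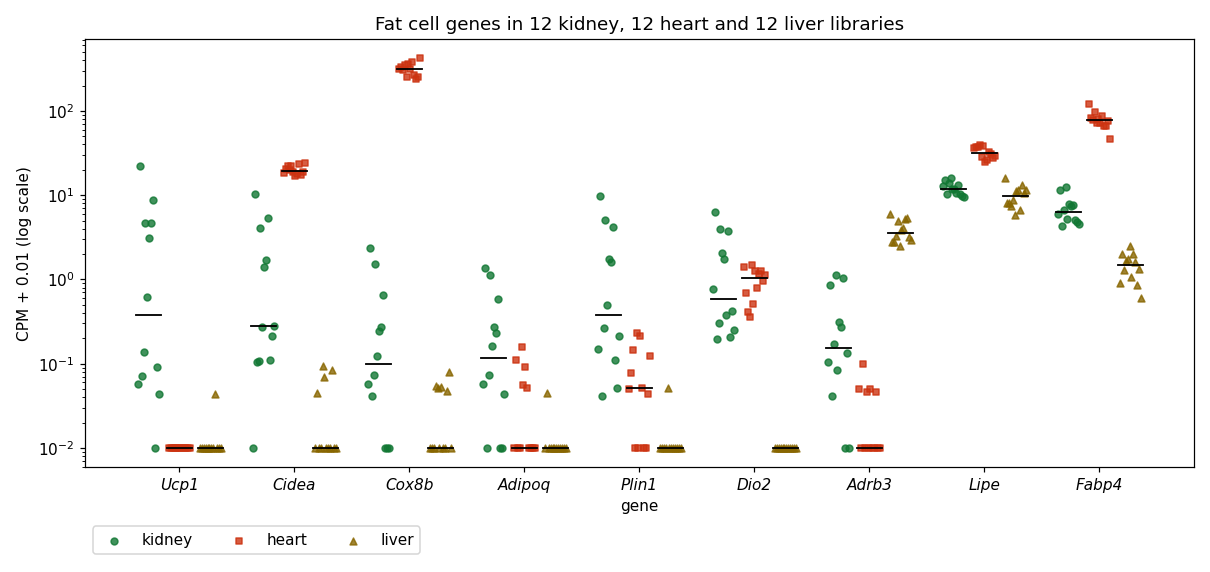
Level of the 9 genes as CPM + 0.01 (vertical axis, log scale) in each of the 12 kidney, 12 heart and 12 liver libraries, with a black line at the median. Ucp1 is at 0 in heart, where Cox8b has a median of 313.0 CPM and Cidea of 19.5 CPM, and Adrb3 is highest in liver.

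Cidea and Cox8b, in contrast, were heart genes in these data. Cidea had a median of 19.5 CPM, with at most 23.9 CPM, and Cox8b lay between 238.0 and 421.0 CPM in the 12 heart libraries, above every kidney library, while liver held 7 counts of Cidea and 6 of Cox8b in all. Per kilobase of exon, the median heart levels were 131.0 for Cox8b, 15.7 for Fabp4, 8.7 for Cidea, 5.33 for Lipe and 0.16 for Dio2. In no heart library did Cidea come with Ucp1, as it did in kidney. Dio2 lay between 0.35 and 1.47 CPM in heart and had 0 counts in liver.

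In liver the receptor gene Adrb3 was at 2.5 to 5.98 CPM with a median of 3.54, above all kidney and heart libraries, with 1 count each of Ucp1 and Plin1 over the 12 liver libraries. Lipe was found in all tissues, with medians of 11.7 CPM in kidney, 31.7 CPM in heart and 9.73 CPM in liver, and the kidney and liver ranges overlapped. The medians of Fabp4 were 6.39, 77.5 and 1.47 CPM, without overlap between the tissues. Noncoding genes are annotated over Adrb3 on both strands, and liver Adrb3 was at 2.87 to 7.47 CPM with both strand columns.

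Changes of the 9 genes with age were tested in heart and liver, whose values did not choose them. In heart 5 of the 9 passed the filter on low counts (Cidea, Cox8b, Dio2, Lipe and Fabp4). At 12 against 8 weeks 1 of these 5 was called, where 4.56% of all 15137 heart genes were. Fabp4 stood at 121.0, 81.5, 78.7 and 97.1 CPM at 8 weeks, 72.6, 80.2, 71.0 and 86.1 CPM at 10 weeks, and 66.3, 66.8, 76.4 and 46.6 CPM at 12 weeks, with no overlap between 8 and 12 weeks. It fell by 0.59 on the log2 scale, with a standard error of 0.13 and an adjusted p of 0.0247 by edgeR's quasi-likelihood test. This call did not hold for all pairs of the gene, since the column used held 24075 of 138486 pairs in heart. With both strand columns, heart Fabp4 was at 426.0, 356.0, 351.0 and 383.0 CPM at 8 weeks and at 423.0, 393.0, 499.0 and 423.0 CPM at 12 weeks, a log2 fold change of 0.17 with an adjusted p of 0.304.

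Lipe in heart was at 35.9, 37.7, 37.3 and 39.8 CPM at 8 weeks and at 32.4, 31.0, 27.8 and 29.4 CPM at 12 weeks, but its log2 fold change of -0.35 ± 0.12 (SE) was not called (adjusted p = 0.0909). The ages did not overlap in this column, which held 55.9% of the Lipe pairs in heart, but overlapped with both strand columns, at 49.8 to 60.2 CPM and 44.3 to 50.0 CPM, where the log2 fold change was -0.25 (adjusted p = 0.162). That of Cox8b was -0.18 ± 0.15, that of Cidea 0.01 ± 0.13 and that of Dio2 0.63 ± 0.39, with adjusted p of 0.508, 0.974 and 0.339. Without replicate 4 at 12 weeks, which at 421.0 CPM was far above the others of that age, Cox8b had a log2 fold change of -0.41 and an adjusted p of 0.0242.

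At 10 against 8 weeks 0 of the 5 heart genes were called by edgeR, where 1.06% of all genes were, and 0 by DESeq2 or limma-voom. At an unadjusted p under 0.05 there were 2 of the 5, against 2386 of all 15137 heart genes. At 12 against 10 weeks 0 were called by edgeR, where 0.0396% of all genes were, and 0 by either other tool. At an unadjusted p under 0.05 there was 1 of the 5, against 1776 of all 15137 genes. In liver 3 of the 9 genes passed the filter (Adrb3, Lipe and Fabp4), and 0 were called by edgeR, DESeq2 or limma-voom in any comparison, with 0 at an unadjusted p under 0.05. The shares of all 14672 liver genes called were 0.239% at 12 against 8 weeks, 0.0204% at 10 against 8 weeks and 0.0545% at 12 against 10 weeks. The liver log2 fold changes at 12 against 8 weeks were 0.2 ± 0.29 (SE) for Adrb3, 0.13 ± 0.27 for Lipe and -0.38 ± 0.37 for Fabp4.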

How the data were processed

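Poly-A RNA from 36 organs was sequenced in pairs. The authors examined reads with FastQC 0.11.9, trimmed them with cutadapt 4.2, aligned them to GRCm39 (Ensembl v113) with STAR 2.7.11b, and deposited STAR's raw read pair counts per gene, without normalization: a column without regard to strand, used here, and a column per strand. Depth was 21031599 to 33637390 counted pairs per library, which left a common coefficient of variation of 0.113 in kidney, 0.118 in heart and 0.206 in liver. Of 78239 gene identifiers 78168 matched GENCODE vM39, a later annotation of the same build, which gave symbols, positions and exon lengths.

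Groups of libraries follow the labelled tissue and age. CPM are counts per 1000000 counted pairs. In each tissue, genes with a count in at least 2 samples and a mean of at least 10 in some age group were kept, as in the study's filter, scaled by TMM and fitted with a mean per age in edgeR 4.0.16 (glmQLFit, glmQLFTest) in R 4.3.3, with Benjamini-Hochberg adjustment and a threshold of 0.05. The study used limma with edgeR. Log2 CPM for likeness used a prior count of 2. The code was tested on simulated data. Alternatives were DESeq2 1.42.0, limma-voom (limma 3.58.1), RLE factors, no filter, 2 ages only, a replicate block, other strand columns and each library left out. Other steps used python 3.11.15, numpy 2.4.6, pandas 2.3.3, scipy 1.17.1 and matplotlib 3.10.9.

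The 9 genes, the 3 lists of other genes and the marker lists were chosen with earlier results of these data known. Named genes are the 9, every list gene called in kidney, the 3 largest differences per list at 12 against 8 weeks and the 10 genes most like Ucp1 or Adipoq. A gene that this rule names is not reported here. The further genes were named after their values were seen, as were the sum of both strand columns and the fit without 2 kidney libraries.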

Additional observations from a re-analysis of the deposited data

Results flagged for a closer look

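In 51 groups of 4 libraries with at least 10 counts of a gene in 1 of them, the highest or lowest library was set against the others by Dixon's ratio, which flags about 1 in 20 groups by chance, and 20 groups were flagged. Of these, 7 had kidney 8-week replicate 2 as the high library, with Ucp1 at 21.9 CPM, Cidea at 10.3, Cox8b at 2.34, Adipoq at 1.37, Plin1 at 9.9, Dio2 at 6.3 and Adrb3 at 0.848 CPM. A further 8 had kidney 12-week replicate 1, with Ucp1 at 8.72 CPM, Cidea at 5.36, Cox8b at 0.643, Adipoq at 0.582, Plin1 at 4.16, Dio2 at 3.76, Adrb3 at 1.04 and Fabp4 at 7.59 CPM. Kidney 10-week replicate 1 was flagged for Cox8b (1.51 CPM) and Adipoq (1.11 CPM). The kidney flags come from genes chosen for their levels there and share libraries, so they are not separate events. Outside kidney, heart 12-week replicate 4 was high in Cox8b (421.0 CPM, next 264.0), and liver 8-week replicate 1 in Adrb3 (5.98 CPM, next 3.27) and Lipe (15.9 CPM, next 8.04).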

How the results depend on the processing

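The sum of the 9 genes in kidney moved by about its spread within ages (SD 0.85) at 10 against 8 weeks, from a log2 ratio of -0.11 to 0.74 without replicate 2 at 8 weeks, also when replicate 1 at 12 weeks was left out (0.74). With single libraries left out it ran from -0.43 to 0.74 there, from -1.15 to 0.27 at 12 against 8 weeks and from -1.04 to -0.15 at 12 against 10 weeks. Calls among the 54 list genes in kidney depended on the filter and the tool. At 12 against 8 weeks the numbers called lower were 0 by edgeR, 1 by DESeq2, 6 without the filter and 0 to 1 with a library left out, and 1 was called higher without the filter. At 10 against 8 weeks 2 were called lower by edgeR, 4 by DESeq2, 11 without the filter, 1 with only the 2 ages, 0 without both 8-week replicate 2 and 12-week replicate 1, and 0 to 5 with a library left out, with 1 higher without the filter. At 12 against 10 weeks the numbers higher and lower were 2 and 1 by DESeq2 and 4 and 2 without the filter, with 1 higher in the fit of 2 ages, 1 lower without both libraries, and 0 to 1 either way with a library left out. In heart, at 12 against 8 weeks 2 genes were called lower without the filter and 2 with only the 2 ages, 0 with both strand columns (Fabp4 at 0.17 in place of -0.59), and 0 to 2 with a library left out, where the Fabp4 call was lost without 8-week replicate 4 or 12-week replicate 2. At 10 against 8 weeks 1 was called lower without the filter and 0 to 1 with a library left out. The numbers of all genes called under each alternative are not given here, so these counts are not read as particular to these genes. Without the filter, edgeR's adjusted p for kidney Dgat2 at 10 against 8 weeks fell from 0.0409 to 2.98e-06. Its log2 fold change stayed at -0.44. The cause of these changes was not tested. No liver count changed under any alternative. Same-numbered libraries of a tissue at different ages came from different mice by design, and correlated by -0.265 to 0.171 within ages. This does not bear on whether heart, kidney and liver of the same number came from the same mouse. The replicate block changed no count, with 2 list genes lower in kidney at 10 against 8 weeks and 1 heart gene lower at 12 against 8 weeks. At these depths, levels under 3 counts could not be told from 0.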
